A study of Rattus norvegicus with 9 samples.

Results

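The 84 genes described here are the potassium channel genes of rat brain that the study's tables hold under the symbol Kcn: pore-forming subunits and the auxiliary subunits that assemble with them. They were chosen by name, as every gene whose symbol is Kcn followed by letters and a number, leaving out Kcnj10, Kcnj13 and Kcne2. A gene also had to reach 0.5 normalized reads in at least 3 of the 9 libraries. Of the 22888 genes listed, 87 carried such a symbol and 84 passed, out of 17770 genes tested in all. Kcnu1, with reads in 2 libraries, and Kcna10 and Kcne1, with reads in 1 library each, lay just outside. Kcnj1, with reads in 3 libraries, lay just inside, followed by Kcnk18, Kcnmb3 and Kcnv2 with reads in 6 libraries each. By role, 15 of the 84 form voltage-gated pores of the Shaker-related types, 10 are silent subunits that modify them, 12 belong to the KCNQ, EAG and ERG types, 7 are opened by calcium or sodium, 13 are inward rectifiers, 14 have a pair of pore domains and 13 are auxiliary.

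RNA of male Sprague-Dawley rat brain was sequenced after the middle cerebral artery had been occluded unilaterally, as in ischemic stroke. Rats of the astaxanthin group (libraries 1, 2 and 3) were gavaged with this carotenoid, an antioxidant, at 45 mg/kg (named a medium dose) for 7 days and then had the occlusion. The model group (libraries 1, 3 and 4) had the occlusion, and the sham group (libraries 1, 3 and 5) a sham operation; no vehicle, age, brain region or side is given for any group. Brain was collected 1 day after the occlusion. The labels do not say that each library is a separate animal, so p-values measure only the spread between these samples, which may be technical. Values below are the authors' reads normalized by library, called normalized reads, and are given in the order of these library numbers.

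Libraries held 52268061 to 76311125 reads, and 3 reads in a library correspond to 2.45 to 3.75 normalized reads. All 15 pan-neuronal markers had reads in every library, as the label brain requires. Individual libraries nevertheless stood apart. All 13 cerebellar markers were highest in astaxanthin 1, with a sum of 379535 normalized reads against at most 21391 elsewhere. Model 3 was lowest for 14 of the 15 pan-neuronal markers, with a sum of 196741 normalized reads against 534565 and 535197 in the other model libraries. It also held a neutrophil sum (8 of 10 markers measured) of 22475 against at most 3587, and an endothelial sum (9 of 10 markers measured) of 93183 against at most 24404. Astaxanthin 1 and sham 5 had the highest sums of choroid plexus and ependymal markers (10 of 11 measured), 194273 and 116543 normalized reads, and the other libraries at most 15717. In sham 5 the striatal markers (9 of 10 measured) summed to 19939, against 103349 and 136026 in the other sham libraries.

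Potassium channels let potassium ions leave or, for the inward rectifiers, hold the cell near its resting potential, and so set how readily a neuron fires and how fast it recovers. Voltage-gated channels repolarize the action potential, calcium- and sodium-activated channels follow the ions that enter during firing, and two-pore-domain and inward rectifier channels carry the resting conductance of neurons, glia and vessel walls. In the ischemic brain, energy failure depolarizes cells and potassium leaves them, and channels opened by low ATP, acid or stretch are studied there for that reason.

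In sham brain the auxiliary subunit Kcnab2, a cytoplasmic beta subunit of Kv1 channels, had the highest level per transcript length, 7582 ± 3775 normalized reads per kilobase in astaxanthin, 4859.6 ± 3007 in model and 8317 ± 1037 in sham libraries (SD, n = 3 each). On the same scale Kcnj9, a subunit of the G protein-gated channels, averaged 2396 ± 357 in astaxanthin, 1459 ± 911 in model and 3818 ± 915 in sham libraries. Kcnip3 and Kcnip2, calcium-binding partners of the Kv4 channels, stood at 3291 ± 1073 and 3263 ± 932 in sham libraries, and Kcnc2, a fast-firing Kv3 channel, at 2842 ± 1163. In the sham order of the 84 members, mean ± SD of neighbours overlapped except between Kcnab2 and Kcnj9 and between Kcnk6 and Kcnj5, so most places in the order are not told apart. At the other end, 8 members stood below 10 normalized reads per kilobase in sham: Kcnj15, Kcnv2, Kcnk7, Kcnk16, Kcnk18, Kcnmb3, Kcna7 and Kcnj1.

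The comparison of model with sham asks what the occlusion did to these genes. A single member passed the test, Kcnv2, which fell (limma on log2(value + 1), Benjamini-Hochberg over all genes tested, threshold 0.05 on the adjusted p). That is 1 of 84, or 1.19%, against 4.77% of all genes tested in both directions and 1.32% in the lower direction. Below an unadjusted p of 0.05 were 20 members on the lower side (23.8%, against 10.1% of all genes) and 6 on the higher side (7.14%, against 13.7%). All 3 model libraries lay below all 3 sham libraries in 23 members (27.4%, against 16.6% of all genes) and above them in 7 (8.33%, against 19% of all genes). The median log2 fold change of the 84 members was -0.48, against 0.02 over all genes, and 62 of the 84 were below 0; setting Kcnv2 at its bound left the median as it was. Without model 3 the median of the members was -0.17. The number of members called moved with single libraries, to 0 without sham 3, 2 without model 3, 7 without astaxanthin 1 and 9 without model 4. It was 11 with model 3 and astaxanthin 1 both left out. Calls over all genes moved in the same fits, from 848 to 73, 549, 1611, 1038 and 2632 in that order. By other tests, edgeR on the recovered reads called Kcnv2 alone (4.06% of all genes were called). DESeq2 called 14 of the 81 members it could adjust (17.3%, against 17.4% of all genes). Of these, 9 were lower (11.1%, against 6.28% of all genes) and 5 higher (6.17%, against 11.1%). The pan-neuronal markers had a median log2 fold change of -0.85 in the same comparison. In bulk tissue fewer cells of a type and less RNA per cell cannot be told apart, and the part of cell composition in these values was not tested.

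**Figure D1:**
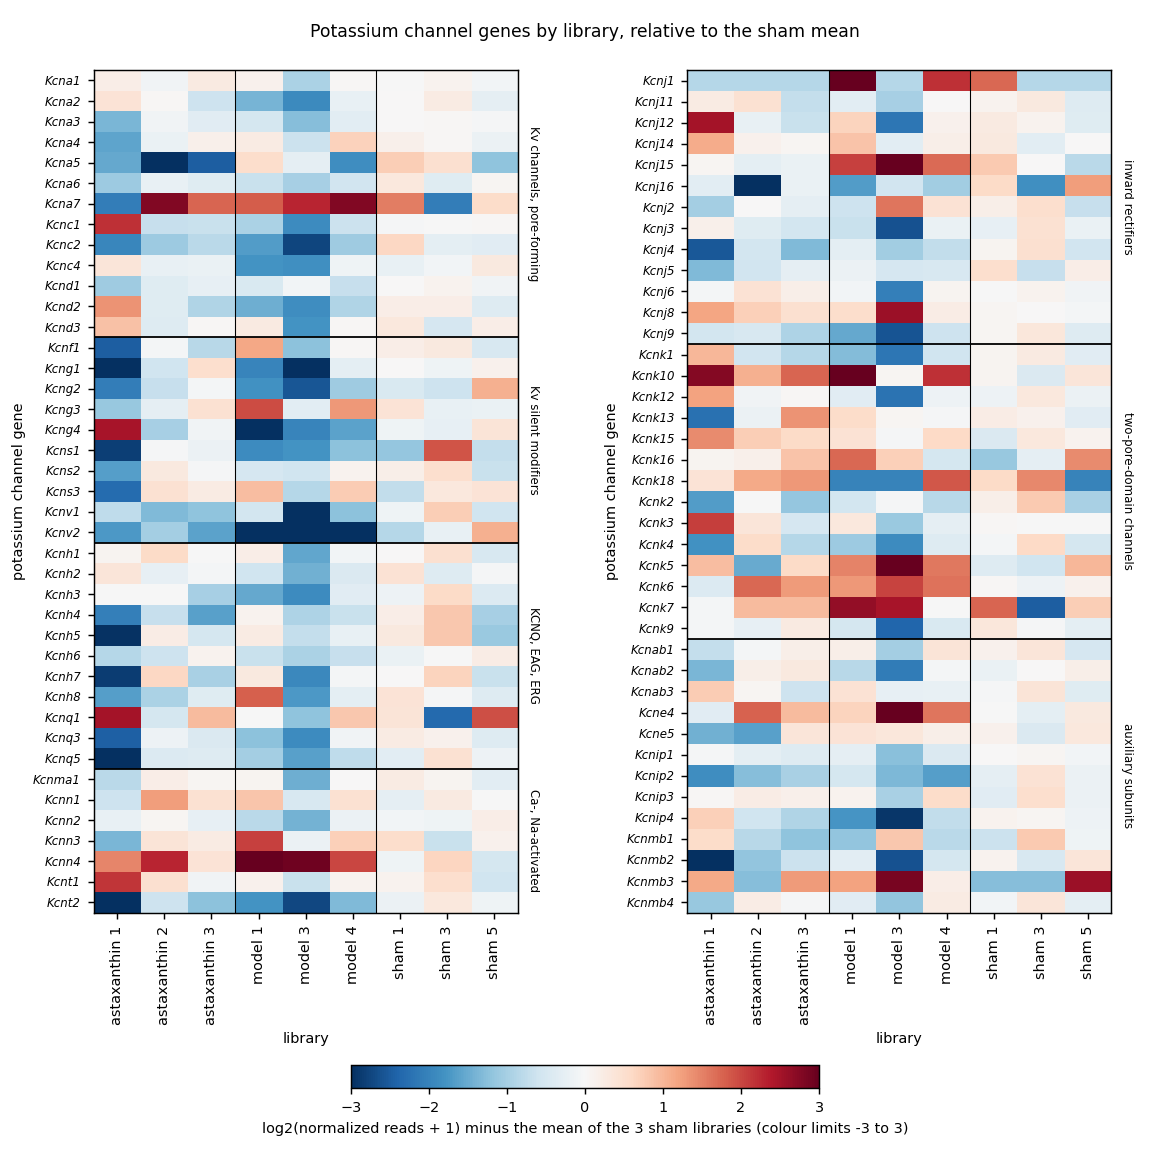
Level of 81 of the 84 potassium channel genes in each library, as log2(normalized reads + 1) minus the mean of the 3 sham libraries (colour, limited to -3 and 3), with genes in rows by role and libraries in columns, astaxanthin, model and sham from left to right. Over all 84 genes, model 3 is the lowest library for 35 and astaxanthin 1 for 29, and Kcnv2 is at 0 reads in all 3 model libraries.

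No member passed with limma in either comparison that involved astaxanthin. In astaxanthin against model, limma called 0 of 84 members and 0% of all genes. At an unadjusted p under 0.05, 10 members were higher (11.9%, against 3.86% of all genes) and 4 lower (4.76%, against 5.03%). The astaxanthin libraries lay above all model libraries in 6 members (7.14%, against 5.72% of all genes) and below them in 2 (2.38%, against 7.24%). EdgeR called 0 members and 0% of all genes, and DESeq2 called 2 of 80, Kcng4 and Kcnv2, both higher (2.5%, against 0.359% of all genes). The members' median log2 fold change was 0.11, and it was -0.19 without model 3 and 0.34 without astaxanthin 1, so that single libraries set its sign and size.

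In astaxanthin against sham, limma called 0 of 84 members, against 0.276% of all genes. At an unadjusted p under 0.05, 6 members were lower (7.14%, against 5.35% of all genes) and 2 higher (2.38%, against 6.99%). All astaxanthin libraries lay below all sham libraries in 12 members (14.3%, against 11.4% of all genes) and above them in 3 (3.57%, against 13% of all genes). EdgeR called 0 members (0% of all genes), and DESeq2 called 2 of 80, Kcnip2 and Kcna5, both lower (2.5%, against 1.64% of all genes). The median of the members was -0.26, against 0.04 over all genes. The model and sham libraries each enter 2 of these comparisons, so the lists above are not independent of each other.

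**Figure D2:**
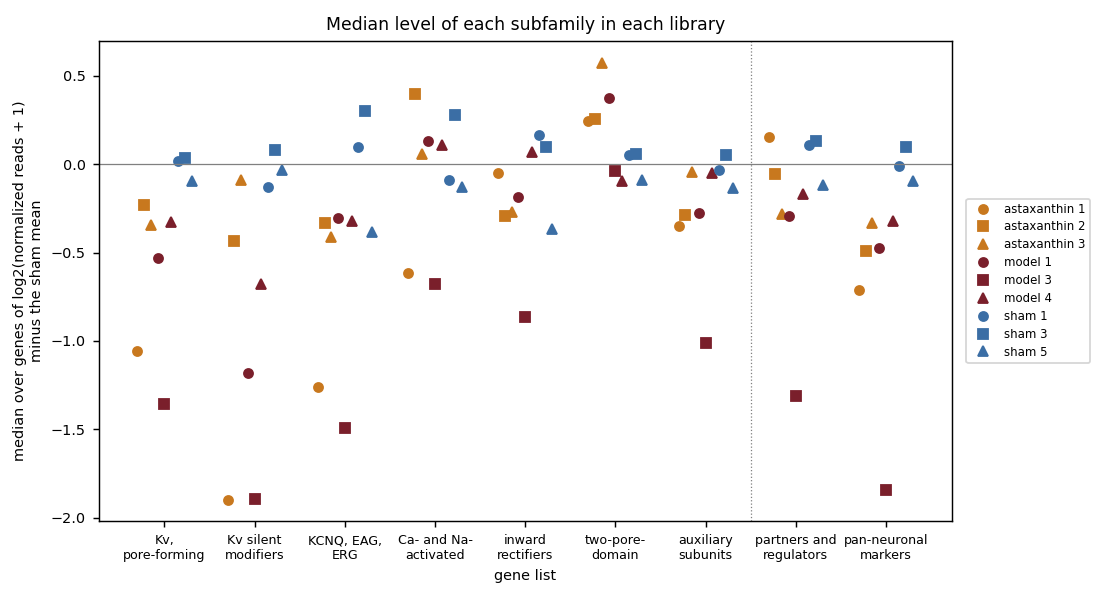
Median over the genes of a list of log2(normalized reads + 1) minus the sham mean, for each library (colour for the group, symbol for the library), with the 7 roles on the left of the dotted line and the channel partners and the pan-neuronal markers on the right. Model 3 lies lowest of the 9 libraries in 7 of the 9 lists, and astaxanthin 1 and model 3 lie at -1.90 and -1.89 for the silent subunits.

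Of the voltage-gated pore-forming genes, 0 of 15 passed with limma or edgeR in model against sham (4.77% and 4.06% of all genes did). On the lower side 5 had an unadjusted p under 0.05 (against 10.1% of all genes), and DESeq2 called 1 lower, Kcnc2 (against 6.28%). Their median log2 fold change in model against sham was -0.71, with 13 of 15 below 0. The Kv3 genes, which let neurons fire fast, included Kcnc2 (rn7 chromosome 7, 47700288 to 47883968) with the smallest p of the list. It held 1988, 3612 and 4400.4 normalized reads in the astaxanthin libraries, 2397, 1129.9 and 3676 in the model libraries and 11877, 6290.5 and 6047 in the sham libraries. All 6 libraries with an occlusion were below the lowest sham library. The fitted log2 fold change was -1.83 ± 0.48 (SE) in model against sham (limma adjusted p = 0.0657, and 0.00515 to 0.238 over 19 alternatives, 4 of which called it). In astaxanthin against sham it was -1.28 ± 0.48 (limma adjusted p = 0.343).

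Kcnc4, another Kv3 gene, had 7911, 5261 and 5391 normalized reads in astaxanthin, 1775, 1712 and 5684 in model and 5329, 5821 and 7571 in sham libraries. Model 1 and 3 were low, while model 4 lay within the sham range. As a log2 fold change, the difference was -1.25 ± 0.44 (SE) in model against sham and 1.23 ± 0.44 in astaxanthin against model (limma adjusted p = 0.131 and 0.548). Kcnc1, known in cerebellar neurons among other fast-firing cells, was far higher in astaxanthin 1 than in any other library. It stood at 40295, 5425 and 5554 normalized reads in astaxanthin, 4563, 2364 and 5675 in model and 8666, 8776 and 8993 in sham libraries. Astaxanthin 1 exceeded the next library 4.48-fold, and all 13 cerebellar markers were also highest there. The part of cerebellar tissue in the level of Kcnc1 was not tested. Without astaxanthin 1, the log2 fold change of Kcnc1 in astaxanthin against model was 0.48, against 1.44 with it. All model libraries were below all sham libraries (log2 fold change -1.16 ± 0.71, SE, limma adjusted p = 0.355). Over 18 alternatives the adjusted p was 0.0125 to 0.6, and 1 of them called it.

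Among the Kv1 genes, which shape firing at the axon, Kcna2 had 28736, 21993 and 13979 normalized reads in astaxanthin, 8172, 5755 and 18417 in model and 21859.7, 25681 and 17856 in sham libraries. Model 1 and 3 were the lowest libraries, and model 4 lay within the sham range. Its log2 fold change was -1.18 ± 0.43 (SE) in model against sham and 1.12 ± 0.43 in astaxanthin against model (limma adjusted p = 0.145 and 0.548). Kcna1, its common partner in the same channel, averaged 20288 ± 2766 normalized reads in astaxanthin, 16243 ± 5777 in model and 18511 ± 1244 in sham libraries (SD, n = 3 each), with model 3 lowest and overlap between all groups. Kcna6 had 5936, 10926 and 9812 normalized reads in astaxanthin, 7910.1, 6364 and 8457 in model and 15686, 9826 and 13197 in sham libraries, and the model libraries all lay below the sham libraries (log2 fold change -0.75 ± 0.27, SE; limma adjusted p = 0.143). Kcna3, which microglia and lymphocytes also use, was below all sham libraries in both groups with an occlusion (log2 fold change -0.71 ± 0.35 in model against sham and -0.61 ± 0.35 in astaxanthin against sham, SE).

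Kcna5, a delayed rectifier of several tissues, had 184, 57.4 and 94.9 normalized reads in astaxanthin, 777, 441 and 147 in model and 888, 747 and 231 in sham libraries. All astaxanthin libraries were below all sham libraries, while the model libraries spread over both ranges. The log2 fold change was -2.41 ± 0.75 (SE) in astaxanthin against sham (limma adjusted p = 0.27, DESeq2 adjusted p = 0.0174, and 0.0174 to 0.632 over 19 alternatives) and -1.87 ± 0.75 in astaxanthin against model (limma adjusted p = 0.548).

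The Kv4 gene Kcnd2, which carries the fast-inactivating current of dendrites, had 17666, 5428 and 3707 normalized reads in astaxanthin, 2495, 1899 and 3721 in model and 7963, 7911 and 5293 in sham libraries. The model libraries lay below all sham libraries, and astaxanthin 1 was 2.22-fold above the next library. The fitted log2 fold change was -1.41 ± 0.53 (SE) in model against sham (limma adjusted p = 0.153), and in astaxanthin against model it was 1.44, or 0.79 without astaxanthin 1. Kcnd1, a Kv4 relative, had 493, 800.0 and 860.4 normalized reads in astaxanthin, 749, 971 and 639 in model and 1029.6, 1103 and 954 in sham libraries, and its astaxanthin values were below all sham values (log2 fold change -0.56 ± 0.27, SE; limma adjusted p = 0.433). Kcna4, Kcna7 and Kcnd3 overlapped between the groups, except that the low-level Kcna7 was above sham in all model libraries (at most 28.1 normalized reads).

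**Figure D3:**
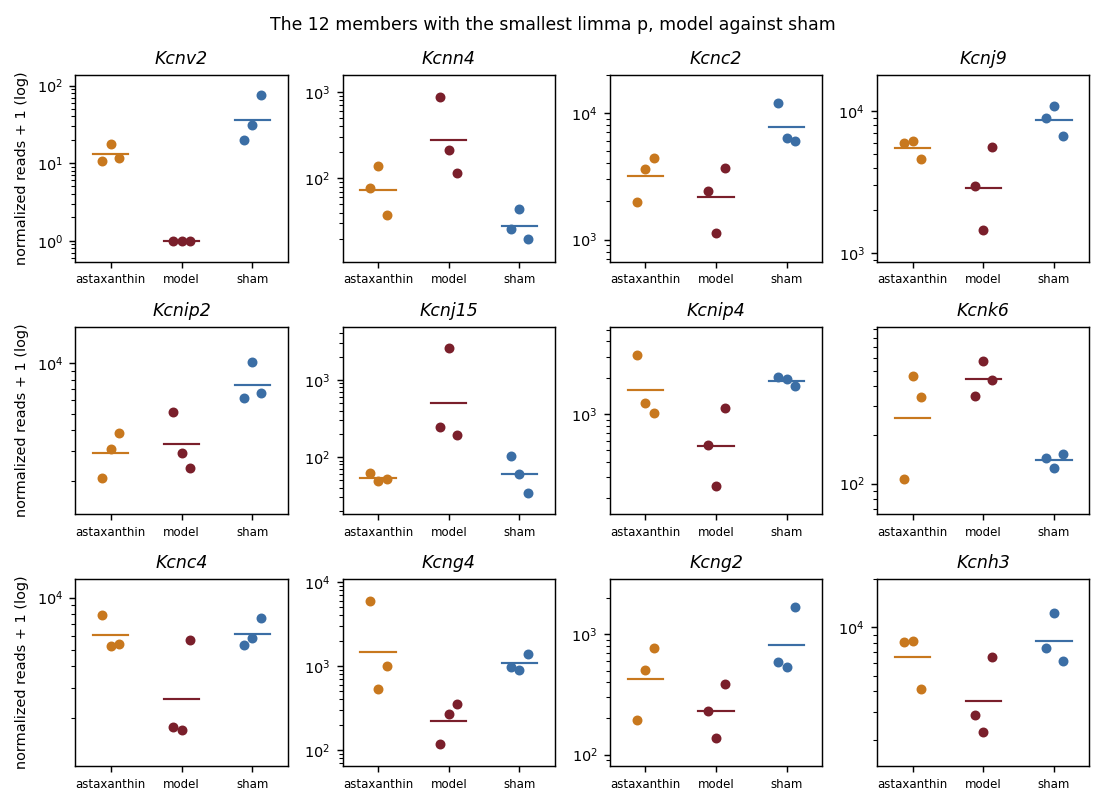
Normalized reads plus 1 (log axis) of the 12 potassium channel genes with the smallest limma p in model against sham, for the 3 libraries of each group, astaxanthin, model and sham from left to right; lines mark geometric means. Kcnv2, which passes the threshold, is at 0 reads in all model libraries, Kcnn4, Kcnj15 and Kcnk6 are higher in all model than in all sham libraries, and the highest point is model 3 for Kcnj15 and astaxanthin 1 for Kcng4.

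The silent subunits do not open alone and change the gating of Kv2 and related channels. Their median log2 fold change in model against sham was -1.64 over 10 genes, the lowest of the 7 roles, with 8 of 10 below 0. Limma called 1 lower (against 1.32% of all genes), 5 had all model libraries below all sham libraries (against 16.6%), and DESeq2 called 4 lower, Kcnv2, Kcng4, Kcng2 and Kcns1 (against 6.28%). Kcnv2, a subunit known for its role in retinal photoreceptors, was the 1 that passed with limma. Its gene (rn7 chromosome 1, 224999552 to 225014062) held 9.76, 16.5 and 10.6 normalized reads in astaxanthin, 0, 0 and 0 in model and 18.8, 29.6 and 73.5 in sham libraries. No read fell on it in any of the 3 model libraries, and the astaxanthin libraries lay between model and sham without overlap with either. Model was at least 14.2-fold lower than sham, with the floor of 3 reads in each model library averaging 2.87 normalized reads, and the fitted log2 fold change was -5.15 ± 0.67 (SE; limma adjusted p = 0.00964). The fitted size depends on the pseudocount, from -2.19 at 10 to -8.43 at 0.1. The call held in 17 of 19 alternatives, with adjusted p from 5.51e-06 to 0.19. It was lost without sham 3 (0.0509) and with a replicate block, a fit that rests on the libraries numbered 1 and 3.

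In astaxanthin, Kcnv2 was at least 4.30-fold higher than in model (fitted log2 fold change 3.70 ± 0.67, SE). That difference did not pass with limma (adjusted p = 0.548) or edgeR and passed with DESeq2 (adjusted p = 0.0105, over 19 alternatives 0.0105 to 0.801). The levels are low throughout, 9.76 to 73.5 normalized reads outside the model group, so each value rests on few reads. The gene has 1 transcript in the table, and the promoter window of RefSeq (GRCr8, chr1:234412924-234413223, plus strand, 250 bases before to 50 after the start) is shown because this is the member that passed. Capitals mark the GC box GGGCGG, which is found once.
Kcnv2: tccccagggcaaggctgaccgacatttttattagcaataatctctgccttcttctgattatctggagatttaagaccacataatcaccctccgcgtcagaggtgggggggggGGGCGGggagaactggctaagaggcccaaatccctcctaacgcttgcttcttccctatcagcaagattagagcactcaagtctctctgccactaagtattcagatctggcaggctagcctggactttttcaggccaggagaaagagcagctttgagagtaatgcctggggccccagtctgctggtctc

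Kcng4, another modifier of Kv2 channels, had 5966, 533 and 989.7 normalized reads in astaxanthin, 116, 271 and 351 in model and 978, 903 and 1394 in sham libraries. The model libraries were below all others, and astaxanthin 1 was 4.28-fold above the next library. As a log2 fold change, the difference was -2.26 ± 0.81 (SE) in model against sham (limma adjusted p = 0.139, DESeq2 adjusted p = 0.04, and 0.0264 to 0.345 over 19 alternatives). For astaxanthin against model it was 2.71 ± 0.81 (limma adjusted p = 0.548, DESeq2 adjusted p = 0.00741, and 0.00741 to 0.801 over 19 alternatives), and 1.70 without astaxanthin 1, where astaxanthin 2 and 3 still lay above every model library. Kcng2 had 192, 504 and 775 normalized reads in astaxanthin, 231, 136 and 389 in model and 592, 529 and 1693 in sham libraries, with all model values below all sham values (log2 fold change -1.81 ± 0.65, SE; limma adjusted p = 0.14, DESeq2 adjusted p = 0.0262, and 0.0262 to 0.408 over 19 alternatives).

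Kcng1, Kcnv1 and Kcns1, also silent subunits, each had 1 or more libraries far from the rest. Kcng1 had 105, 2318 and 5038 normalized reads in astaxanthin, 889, 248 and 2878 in model and 3542, 3223 and 3857 in sham libraries, so that astaxanthin 1 and model 3 were both over an order of magnitude below sham. Kcnv1 had 2059.6, 1402 and 1502 in astaxanthin, 2366, 392 and 1494 in model and 3191, 5793 and 2294 in sham libraries, with model 3 3.57-fold below the next library. Kcns1 was at 2277 normalized reads in sham 3 and at 86.8 to 601 in the other 8 libraries. The limma adjusted p of these 3 genes in model against sham were 0.395, 0.153 and 0.315. For Kcns1 all model libraries (166, 177 and 264 normalized reads) were below all sham libraries (276, 2277 and 378), and DESeq2 called it lower (adjusted p = 0.0479). Kcnf1, Kcng3, Kcns2 and Kcns3 overlapped between model and sham, with log2 fold changes of -0.01, 0.98, -0.33 and 0.28.

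All 12 genes of the KCNQ, EAG and ERG types had a log2 fold change below 0 in model against sham, from -1.25 to -0.08 with a median of -0.67. Over all genes tested, 8724 of 17770 were below 0. With limma 0 of the 12 passed (4.77% of all genes did), and 4 had an unadjusted p under 0.05 on the lower side (against 10.1% of all genes). Kcnh3, an ELK-type channel of forebrain neurons, had 8157, 8190.3 and 4127 normalized reads in astaxanthin, 2854, 2242 and 6542 in model and 7408, 12267 and 6221 in sham libraries. Model 1 and 3 were the lowest libraries (log2 fold change -1.25 ± 0.45, SE; limma adjusted p = 0.142). Kcnh2, the ERG channel, had 4538, 2971 and 3364 normalized reads in astaxanthin, 2333, 1297 and 2604 in model and 4701, 2666 and 3444 in sham libraries, with the model libraries below all libraries of both other groups. Its fitted log2 fold change was -0.82 ± 0.32 (SE) in model against sham, 0.84 ± 0.32 in astaxanthin against model and 0.02 ± 0.32 in astaxanthin against sham (limma adjusted p = 0.165, 0.548 and 0.986). Kcnh4, of the ELK type, had 217, 557 and 294 normalized reads in astaxanthin, 973, 479 and 573 in model and 1038, 1575 and 453 in sham libraries (log2 fold change -1.46 ± 0.53 in astaxanthin against sham, SE; limma adjusted p = 0.327).

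Of the KCNQ genes, whose channels carry the M-current that damps repeated firing, Kcnq3 had 1101, 5421 and 4461 normalized reads in astaxanthin, 2566, 1641 and 5657 in model and 7193, 6633 and 4616 in sham libraries, with astaxanthin 1 lowest. Kcnq5 had 632, 3884 and 3991 normalized reads in astaxanthin, 2575, 1675 and 3069 in model and 4161, 7185 and 4710.3 in sham libraries. For Kcnq5 all 6 libraries with an occlusion were below all 3 sham libraries. Log2 fold changes in model against sham were -1.07 ± 0.63 and -1.14 ± 0.66 (SE) for Kcnq3 and Kcnq5, with limma adjusted p of 0.338 and 0.326. Kcnh6 was the only one of Kcnh1, Kcnh5, Kcnh6, Kcnh7, Kcnh8 and Kcnq1 whose model and sham libraries did not overlap.

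Among the 7 channels opened by calcium or sodium the median log2 fold change in model against sham was -0.15. Kcnn4, the intermediate-conductance calcium-activated channel known in microglia, lymphocytes and endothelium, had 77.0, 136 and 36.8 normalized reads in astaxanthin, 872, 212 and 113 in model and 25, 43.2 and 18.6 in sham libraries. The lowest model library was above the highest sham library, with a wide spread among the model libraries. The log2 fold change in model against sham was 3.29 ± 0.80 (SE), which did not pass with limma (adjusted p = 0.0536) and passed with DESeq2 (adjusted p = 0.000102; 0.000102 to 0.221 over 19 alternatives). In astaxanthin against model it was -1.90 ± 0.80 (limma adjusted p = 0.557). The 13 microglia and macrophage markers summed to 18125 to 27235 normalized reads in astaxanthin, 31083 to 47303 in model and 22507 to 25558 in sham libraries. They did not move as 1: in model against sham limma called 3 higher and 2 lower, with a median log2 fold change of 0.39. The part of these markers in the level of Kcnn4 was not tested.

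Of the neuronal calcium-activated channels, Kcnma1, the large-conductance one, had 3350.3, 6798 and 6122 normalized reads in astaxanthin, 6192, 2134 and 5953 in model and 6996, 6202 and 4711 in sham libraries (log2 fold change -0.46 ± 0.44 in model against sham, SE), and its span overlaps another listed gene. Kcnn2, a small-conductance channel, had 1696, 2062 and 1649.7 in astaxanthin, 1129, 735 and 1745 in model and 1850.2, 1812 and 2270.3 in sham libraries, with all model values below all sham values (log2 fold change -0.80 ± 0.30, SE; limma adjusted p = 0.15). Kcnn1 and Kcnn3, of the same type, overlapped between groups. Of the sodium-activated pair, Kcnt1 was 3.12-fold higher in astaxanthin 1 than in the next library, at 25177, 7965 and 5282 normalized reads in astaxanthin, 6245, 3575 and 6153 in model and 6139, 8081 and 3751 in sham libraries. Kcnt2 was lowest in that library, with 44.5, 937 and 609 in astaxanthin, 416, 217 and 576 in model and 1272, 1776 and 1315 in sham libraries. All 6 libraries with an occlusion were below sham for Kcnt2 (log2 fold change -1.94 ± 0.99 in model against sham and -2.28 ± 0.99 in astaxanthin against sham, SE; limma adjusted p = 0.27 and 0.403). Without astaxanthin 1 the log2 fold change of Kcnt2 in astaxanthin against sham was -0.93, and in model against sham the call was made in 3 of 19 alternatives (adjusted p 0.0162 to 0.468), 1 of them without astaxanthin 1 (0.0242).

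The 13 inward rectifiers had a median log2 fold change of -0.43 in model against sham, with 5 above 0 and 8 below. Kcnj9, Kcnj3 and Kcnj6 encode subunits of the channels that G proteins open when inhibitory transmitters bind. Kcnj9 had 5921, 6185 and 4579 normalized reads in astaxanthin, 2974, 1444 and 5615 in model and 8948, 10911 and 6639 in sham libraries, so that all 6 libraries with an occlusion lay below sham. Its log2 fold change was -1.58 ± 0.44 (SE) in model against sham (limma adjusted p = 0.0758, and 0.0186 to 0.222 over 19 alternatives) and -0.65 ± 0.44 in astaxanthin against sham. Kcnj3 had 6666, 4616 and 4105 normalized reads in astaxanthin, 3761, 977 and 5209 in model and 4993, 8194 and 5197 in sham libraries, and Kcnj6 7638, 10665 and 8904 in astaxanthin, 7436, 1899.7 and 8311 in model and 7885, 8502 and 7378 in sham libraries. Model 3 was 3.85-fold below the next library for Kcnj3 and 3.88-fold for Kcnj6, and the other model libraries lay within the sham range except model 1 for Kcnj3. Without model 3 the log2 fold change in model against sham was -0.43 for Kcnj3 and -0.01 for Kcnj6, against -1.16 and -0.69 with it.

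Of the strong rectifiers, Kcnj4 had 898, 3612 and 2100.4 normalized reads in astaxanthin, 4283, 2539.8 and 3147 in model and 5584, 7316 and 3545 in sham libraries, with a log2 fold change of -1.47 ± 0.49 (SE) in astaxanthin against sham (limma adjusted p = 0.296). Kcnj2 was highest in model 3, at 516, 1058 and 872 normalized reads in astaxanthin, 679.7, 3179 and 1407 in model and 1173, 1495 and 651 in sham libraries. Its log2 fold change in model against sham was 0.47, and -0.10 without model 3. Kcnj12 stood at 10704 normalized reads in astaxanthin 1, 3.58-fold above the next library, and at 419.9 in model 3, 2.83-fold below the next.

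The ATP-sensitive channels are built from Kcnj8 in vessel walls and pericytes and from Kcnj11 in neurons. Kcnj8 had 515, 372 and 315 normalized reads in astaxanthin, 325, 1329.6 and 263 in model and 235, 225 and 214 in sham libraries, and all 6 libraries with an occlusion were above sham. Its fitted log2 fold change was 1.11 ± 0.56 (SE) in model against sham (limma adjusted p = 0.268) and 0.80 ± 0.56 in astaxanthin against sham (limma adjusted p = 0.586). It was highest in model 3, where the 10 pericyte and smooth muscle markers summed to 37045 normalized reads, against 13738 to 18367 in astaxanthin, 11900 and 12783 in the other model and 10182 to 13382 in sham libraries. The part of these markers in the level of Kcnj8 was not tested. Without model 3 the log2 fold change in model against sham was 0.38. Kcnj11 had 2565, 2983 and 1315 normalized reads in astaxanthin, 1743, 1081 and 2181 in model and 2307, 2635 and 1651 in sham libraries, with a log2 fold change of -0.43 ± 0.37 (SE) in model against sham.

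Kcnj15 and Kcnj16 belong to the type found in glia and epithelia. Kcnj15 (rn7 chromosome 11, 34577363 to 34621952) had 60.7, 47.7 and 50.7 normalized reads in astaxanthin, 246, 2618 and 193 in model and 103, 59.3 and 33.1 in sham libraries. The model libraries were above all others, and model 3 was 10.6-fold above the next. The log2 fold change was 3.07 ± 0.92 (SE) in model against sham (limma adjusted p = 0.0942) and -3.22 ± 0.92 in astaxanthin against model (limma adjusted p = 0.548). Without model 3 these were 1.87 (adjusted p = 0.0873, range over 18 alternatives 0.0529 to 0.313) and -2.02. The 8 measured neutrophil markers summed to 922 to 3587 normalized reads in astaxanthin, 1118 to 22475 in model, with the highest in model 3, and 200.1 to 329 in sham libraries, where Cxcr2 and Ngp had no read. Their part in the level of Kcnj15 was not tested.
The RefSeq window of Kcnj15 (GRCr8, chr11:48070700-48070999, plus strand) is shown because its transcripts, described below, begin at different places; it holds none of the motifs searched and so has no capitals.
Kcnj15: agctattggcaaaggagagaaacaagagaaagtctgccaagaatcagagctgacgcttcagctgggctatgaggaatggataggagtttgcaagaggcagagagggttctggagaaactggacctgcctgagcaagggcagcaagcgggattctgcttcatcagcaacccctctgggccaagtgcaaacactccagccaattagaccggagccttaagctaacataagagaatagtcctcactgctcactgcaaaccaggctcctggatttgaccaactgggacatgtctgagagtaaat

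Kcnj16 overlapped between all pairs of groups, with 1191, 50.6 and 1293 normalized reads in astaxanthin, 461, 995 and 717 in model and 2218, 413 and 3556 in sham libraries. It lies 39.1 kb from Kcnj2 on chromosome 10, where Kcnj2 was highest in model 3 and Kcnj16 in sham 5. Kcnj1, Kcnj5 and Kcnj14 overlapped between all pairs of groups, and Kcnj1 had no read in the astaxanthin libraries. The annotated span of Kcnj14 overlaps 8 other genes, so its reads are uncertain.

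The 14 two-pore-domain genes, which carry leak currents, had the median log2 fold change nearest to 0 in model against sham (-0.08, with 7 on each side). With limma 0 passed (4.77% of all genes did). At an unadjusted p under 0.05, 3 were higher and 2 lower (against 13.7% and 10.1% of all genes), and DESeq2 called 3 higher (against 11.1%). Kcnk6 had 105, 463 and 341 normalized reads in astaxanthin, 347, 571 and 435 in model and 143, 125 and 152 in sham libraries. All model libraries and astaxanthin 2 and 3 were above all sham libraries, while astaxanthin 1 was below them. The fitted log2 fold change was 1.66 ± 0.52 (SE) in model against sham (limma adjusted p = 0.105, DESeq2 adjusted p = 0.0107, and 0.0107 to 0.32 over 19 alternatives). In astaxanthin against sham it was 0.87 ± 0.52 with astaxanthin 1 and 1.51 without it.

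Kcnk10, of the stretch- and acid-sensitive TREK type, had 1705, 533 and 852 normalized reads in astaxanthin, 2431, 261 and 1149 in model and 265, 185 and 326 in sham libraries. All libraries with an occlusion but model 3 were above sham. As a log2 fold change, the difference was 1.83 ± 0.76 (SE) in model against sham and 1.86 ± 0.76 in astaxanthin against sham (limma adjusted p = 0.188 and 0.381). Without model 3 it was 2.72 in model against sham (adjusted p = 0.0452, range over 19 alternatives 0.0114 to 0.411). Its relative Kcnk2 had 944, 2970.2 and 1344 normalized reads in astaxanthin, 2050.1, 2925 and 1675 in model and 3408, 5137 and 1538 in sham libraries (log2 fold change -0.47 ± 0.52 in model against sham, SE).

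Kcnk5, an acid-sensitive channel of epithelia, had 72.7, 12.7 and 57.3 normalized reads in astaxanthin, 109, 677 and 115 in model and 28.8, 24.7 and 76.6 in sham libraries. Model 3 was 5.84-fold above the next library, and the model libraries were above all others. Its log2 fold change was 2.40 ± 0.92 (SE) in model against sham and -2.40 ± 0.92 in astaxanthin against model (limma adjusted p = 0.16 and 0.548), or 1.53 and -1.54 without model 3. Kcnk1, a weakly rectifying channel abundant in astrocytes and neurons, had 11146, 3727 and 3095 normalized reads in astaxanthin, 2269, 1245 and 3681 in model and 5888, 6682 and 4365 in sham libraries, with all model values below sham (log2 fold change -1.35 ± 0.53, SE; limma adjusted p = 0.167).

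Kcnk9, an acid-sensitive channel of neurons, was also below sham in all model libraries, at 1573, 1385 and 1979 normalized reads in astaxanthin, 1127, 312 and 1194 in model and 2068, 1594 and 1326 in sham libraries (log2 fold change -1.13 ± 0.48, SE; limma adjusted p = 0.198). Kcnk15 was above sham in all astaxanthin libraries, at 748, 470.0 and 419.6 normalized reads in astaxanthin, 378, 274 and 428 in model and 208, 352 and 305 in sham libraries (log2 fold change 0.91 ± 0.34, SE; limma adjusted p = 0.336). Kcnk13, known from microglia, had 60.7, 256 and 743 in astaxanthin, 425, 302 and 282 in model and 338, 319 and 228 in sham libraries and overlapped throughout. Kcnk3 was 3.30-fold higher in astaxanthin 1 than in the next library, and Kcnk12 3.67-fold lower in model 3 than in the next. Kcnk4, Kcnk7, Kcnk16 and Kcnk18 overlapped between all pairs of groups.

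**Figure D4:**
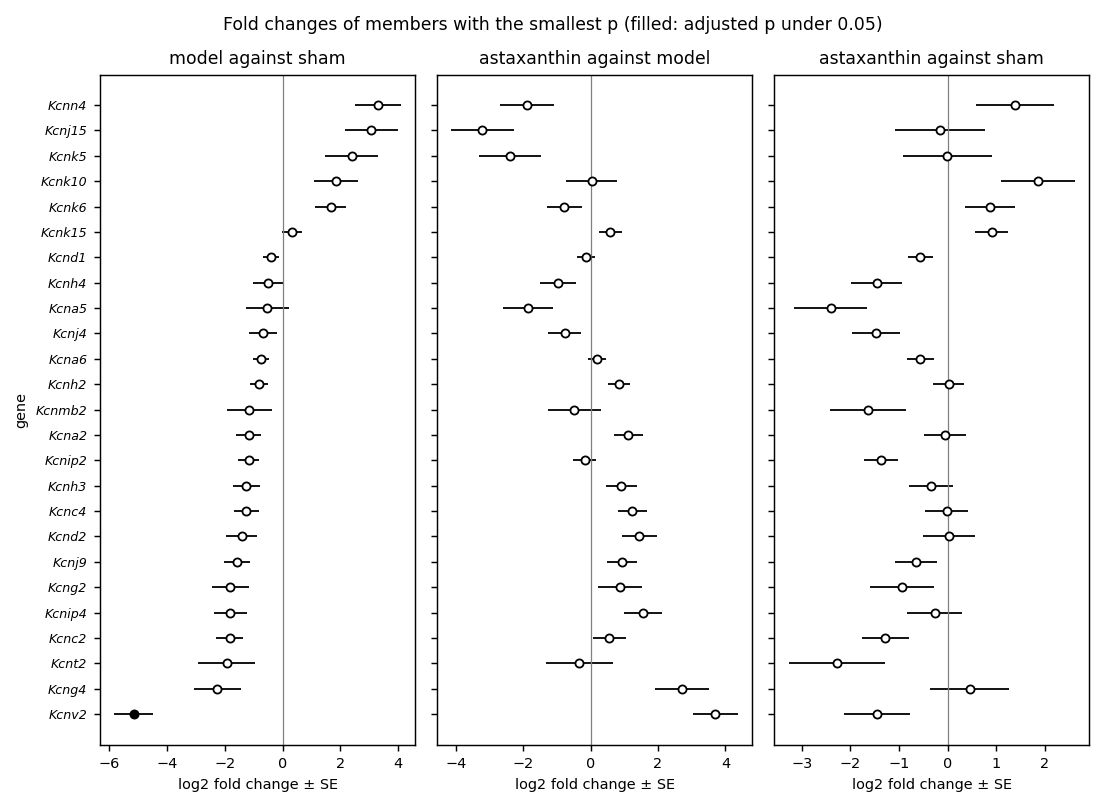
Log2 fold change with its standard error in each of the 3 comparisons, for potassium channel genes among the 12 smallest p of any comparison, ordered by model against sham. The filled point, Kcnv2 in model against sham, is the one with an adjusted p under 0.05, and all other points are open.

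Among the 13 auxiliary subunits the median log2 fold change in model against sham was -0.39, and 0 passed with limma (4.77% of all genes did). At an unadjusted p under 0.05, 1 was higher and 3 lower (against 13.7% and 10.1% of all genes). DESeq2 called 1 higher and 2 lower (against 11.1% and 6.28%). Kcnip2, a calcium-binding partner of Kv4 channels (rn7 chromosome 1, 244641150 to 244664874), had 2057, 3094 and 3833 normalized reads in astaxanthin, 5138, 2936 and 2368 in model and 6169.9, 10155 and 6643 in sham libraries. All 6 libraries with an occlusion were below all 3 sham libraries. The log2 fold change was -1.18 ± 0.35 (SE) in model against sham (limma adjusted p = 0.0894, DESeq2 0.0228, and 0.0228 to 0.417 over 19 alternatives). In astaxanthin against sham it was -1.36 ± 0.35 (limma adjusted p = 0.193, DESeq2 0.0147, and 0.0147 to 0.765 over 19 alternatives).
Its RefSeq window (GRCr8, chr1:254613849-254614148, minus strand) is shown because Kcnip2 is the member with the smallest p in astaxanthin against sham; capitals mark the GC box GGGCGG, found at 2 places.
Kcnip2: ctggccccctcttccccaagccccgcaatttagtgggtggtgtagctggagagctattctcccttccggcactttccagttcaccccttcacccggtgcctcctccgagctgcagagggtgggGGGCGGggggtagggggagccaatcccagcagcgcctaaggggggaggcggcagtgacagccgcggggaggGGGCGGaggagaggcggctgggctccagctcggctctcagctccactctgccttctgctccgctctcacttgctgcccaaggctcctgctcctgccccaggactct

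Kcnip4, which also binds Kv4 channels, had 3116, 1244 and 1012 normalized reads in astaxanthin, 553, 251 and 1129 in model and 2034, 1959 and 1707 in sham libraries. The model libraries were below all sham libraries, with model 3 lowest (log2 fold change -1.81 ± 0.56, SE; limma adjusted p = 0.103). For astaxanthin against model the log2 fold change was 1.55, 1.06 without astaxanthin 1 and 1.0 without model 3. Kcnip3, a Kv4 partner that also acts in the nucleus, had 7080.2, 8055 and 7720.2 normalized reads in astaxanthin, 7420.4, 3528 and 10119 in model and 5517, 9814 and 6140.0 in sham libraries, and its groups overlapped (log2 fold change -0.11 ± 0.37 in model against sham, SE). Kcnip1 was below sham in all model libraries (log2 fold change -0.65 ± 0.26, SE), though its span contains that of Kcnmb1, with 7895 bases shared.

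The beta subunits of Kv1 channels overlapped between groups. Kcnab1 had 5869, 9131 and 10849 normalized reads in astaxanthin, 10818, 4747 and 12443 in model and 10509.5, 12296 and 6793 in sham libraries, and Kcnab2 5277, 15348 and 16715 in astaxanthin, 7619.6, 3169 and 13080.3 in model and 11891, 13690.4 and 15304 in sham libraries, with model 3 lowest in both. Of the subunits of the large-conductance channel, Kcnmb4, the neuronal one, had 1335, 3426 and 2846 in astaxanthin, 2298, 1283 and 3491 in model and 2781, 3796 and 2384 in sham libraries. Kcnmb2 was below sham in all astaxanthin libraries, at 24.9, 95.4 and 139.9 normalized reads in astaxanthin, 175, 35.0 and 151 in model and 236, 157 and 279.5 in sham libraries (log2 fold change -1.63 ± 0.78, SE; limma adjusted p = 0.437). Kcne4, an inhibitory subunit of Kv1 channels, was above sham in all model libraries, at 144, 632 and 355 normalized reads in astaxanthin, 291, 1706 and 564 in model and 184, 151 and 225 in sham libraries. Its fitted log2 fold change was 1.83 ± 0.70 (SE; limma adjusted p = 0.16, DESeq2 0.0148), and model 3 was 2.70-fold above the next library. Kcnab3, Kcne5, Kcnmb1 and Kcnmb3 overlapped between all pairs of groups.

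Proteins that bind, anchor or regulate these channels were followed through a list of 25 genes, of which 24 were tested. In model against sham 1 passed and fell with limma and with edgeR (against 1.32% and 0.81% of all genes lower). DESeq2 called 6 (against 17.4%), of which only Rest was higher. At an unadjusted p under 0.05, 9 were lower and 1 higher (against 10.1% and 13.7% of all genes), and the median log2 fold change was -0.68. Lgi3, a secreted protein that acts on Kv1 complexes at the axon and synapse, had 10314, 5565 and 7611 normalized reads in astaxanthin, 1881, 3395 and 3061 in model and 9585, 7851 and 11758 in sham libraries. It fell in model against sham (log2 fold change -1.83 ± 0.30, SE; limma adjusted p = 0.0191), and in astaxanthin against model the log2 fold change was 1.49 ± 0.30 (limma adjusted p = 0.548), with all astaxanthin libraries above all model libraries. Rest, the repressor of many neuronal genes, had 313, 666 and 564 normalized reads in astaxanthin, 628, 1208 and 732 in model and 393, 232 and 343 in sham libraries. Every model library was above every sham library (log2 fold change 1.38 ± 0.38, SE, limma adjusted p = 0.0765, DESeq2 adjusted p = 0.00598).

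Dpp10, a Kv4 auxiliary protein, and Cntnap2, which gathers Kv1 channels beside the nodes of axons, had log2 fold changes of -1.57 ± 0.45 and -1.09 ± 0.36 in model against sham (SE; limma adjusted p = 0.0858 and 0.117). In the comparisons with astaxanthin 0 of the 24 passed with limma or edgeR. DESeq2 called 1 in each, Lgi3 against model and Lrrc38 against sham (against 1.25% and 4.81% of all genes). At an unadjusted p under 0.05, 5 were higher and 0 lower in astaxanthin against model (against 3.86% and 5.03% of all genes). In astaxanthin against sham 1 was higher and 2 lower (against 6.99% and 5.35%). Ank3, the anchor of channels at the axon initial segment, had 32679, 25367 and 26733 normalized reads in astaxanthin, 18124, 12108 and 20662 in model and 29625, 25413 and 24943 in sham libraries, so that every model library was below every other library (log2 fold change 0.76 ± 0.23 in astaxanthin against model and -0.68 ± 0.23 in model against sham, SE; limma adjusted p = 0.548 and 0.118). Lrrc38, an auxiliary protein of large-conductance channels, was above model and sham in all astaxanthin libraries, at 1089, 362 and 361 normalized reads in astaxanthin, 146, 297 and 245 in model and 68.8, 152 and 117 in sham libraries, and highest in astaxanthin 1 (log2 fold change 2.28 ± 0.53 in astaxanthin against sham, SE; limma adjusted p = 0.16). Cntn2 and Abcc8, a cell adhesion protein of the same axonal complexes and the sulfonylurea receptor of ATP-sensitive channels, had the next smallest p in astaxanthin against model (log2 fold change 1.29 ± 0.48 and 1.19 ± 0.50, SE), and both were highest in astaxanthin 1. Vapb, a membrane protein that binds Kv2 channels, was below sham in both groups with an occlusion (log2 fold change -0.33 ± 0.14 in astaxanthin against sham and -0.32 ± 0.14 in model against sham, SE).

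Transcripts of the members were tested in the same way over the 32824 transcripts tested, which the authors normalized apart from the genes. Of 203 transcripts listed for the 84 members 154 were tested, and 35 members had at least 2 of these. In model against sham, 2 rose (1.3%, against 0.579% of all transcripts) and 2 fell (1.3%, against 0.11%). Of those that rose, Kcnj15-205 met the filter on low values only through the model libraries, so its call adds no support. In astaxanthin against model 0 passed with limma (0.0518% of all transcripts did), and 15 had an unadjusted p under 0.05 (9.74%, against 6.43%). In astaxanthin against sham 1 rose (0.649%, against 0.149% of all transcripts). No other tool was run on transcripts, whose reads the authors' tools had assigned where transcripts share exons.

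Kcnk10-203 was the transcript that passed in both comparisons with sham. It had 382, 293 and 139 normalized reads in astaxanthin, 241, 251 and 78.9 in model and 0 in each of the 3 sham libraries. Astaxanthin was at least 78.3-fold and model at least 54.9-fold higher than sham, with a floor of 3.47 normalized reads (limma adjusted p = 0.00488 and 0.00504, with ranges over 12 alternatives of 0.00187 to 0.0327 and 0.00214 to 0.0318). It took 23.0%, 56.0% and 16.5% of the reads of Kcnk10 in astaxanthin, 10%, 95.3% and 6.93% in model and 0% in sham libraries. In model 3, where the gene as a whole was within the sham range, Kcnk10-201 stood at 12.4 normalized reads there, against 1826 and 957 in model 1 and 4. The 3 transcripts share the end at 117694222 of chromosome 6 and differ at the other end, which lies at 117825695 for Kcnk10-203, 117823319 for Kcnk10-202 and 117822463 for Kcnk10-201 (rn7).

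The transcripts that reads of Kcnj15 were assigned to differed between the model libraries and the others. Kcnj15-205 had 0 in each of the astaxanthin libraries, 61.6, 1292 and 185 normalized reads in the model libraries and 0 in each of the sham libraries. It was at least 148-fold higher in model than in sham (limma adjusted p = 0.0237, range over 12 alternatives 0.0144 to 0.0895). It met the filter on low values only through the 3 model libraries, so it could enter the test only where model was higher, and the call adds no support to its values. Kcnj15-209 had 59.1, 46.8 and 50.2 normalized reads in astaxanthin, 0, 1.04 and 0 in model and 100.5, 58.3 and 32.8 in sham libraries, a log2 fold change of -5.54 ± 0.73 (SE) in model against sham (limma adjusted p = 0.0215, range over 12 alternatives 0.0223 to 0.0865). Each call was lost in 3 of the 9 fits that left out a library, without sham 1, sham 3 or sham 5 for Kcnj15-205 and without model 1, sham 1 or sham 3 for Kcnj15-209; the highest adjusted p, 0.0895 and 0.0865, came without sham 1. All reads of the gene in the astaxanthin and sham libraries were assigned to Kcnj15-209, and at most 0.0393% in a model library. For astaxanthin against model the adjusted p of both transcripts was 0.111, and for Kcnj15-205 it passed without model 1 (0.044) or without model 3 (0.0386).

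On chromosome 11 (rn7) the lower ends of Kcnj15-201 to Kcnj15-205 lie between 34577363 and 34577441, and that of Kcnj15-209 at 34605054, while their upper ends all lie between 34621758 and 34621952. The deposited table lists the same coding length for all of them, and RefSeq places the gene on the plus strand of GRCr8, where the lower end is the 5′ end. The model libraries also held Kcnj15-202 (173 and 726 normalized reads in model 1 and 3) and Kcnj15-203 (8.28, 49.8 and 6.27), which had no read in the astaxanthin and sham libraries. The transcripts assigned in model libraries thus reached further at the lower end than the one assigned in the other libraries. Kcnv2-201, the only transcript of its gene, repeated the gene's fall (limma adjusted p = 0.0297) and kept the call in 2 of 9 fits with a library left out, with a highest adjusted p of 0.0975 without model 1.

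At 0 in all libraries of 1 group and above the floor in all of the other were 5 member transcripts in model against sham (3.25%, against 0.975% of all transcripts): Kcnv2-201, Kcnk10-203, Kcnj15-203, Kcnj15-205 and Kcnq5-203. Kcnj15-203 and Kcnj15-205 met the filter on low values only through the model libraries. They could enter this count only where model was higher, so their part in the share is no support. Kcnq5-203 had 0, 37.2 and 2012 normalized reads in astaxanthin, 1406, 1435 and 69.0 in model and 0 in each of the sham libraries. It was at least 279.9-fold higher in model than in sham and did not pass (limma adjusted p = 0.149), with astaxanthin 1 at 0 and the other libraries with an occlusion spread widely.

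Of the other transcripts, which did not pass, 2 of Kcnma1 show a pattern that the whole gene does not. Kcnma1-205 had 1198, 1331 and 1665 normalized reads in astaxanthin, 926, 489.7 and 335 in model and 1420.0, 1833 and 1531 in sham libraries, and Kcnma1-203 had 912, 1177 and 675 in astaxanthin, 539, 499 and 378 in model and 1046, 1786 and 1185 in sham libraries. In both, every model library was below every other library (log2 fold change -1.57 ± 0.37 and -1.48 ± 0.31 in model against sham, SE; limma adjusted p = 0.107 and 0.0836). Kcnc4-202 was likewise below all sham libraries in all model libraries, at 3267, 5158 and 1844 normalized reads in astaxanthin, 1754, 1726 and 2041 in model and 5219, 5726 and 6917 in sham libraries (log2 fold change -1.69 ± 0.35, SE; limma adjusted p = 0.078). These were named after their values were seen.

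**Figure D5:**
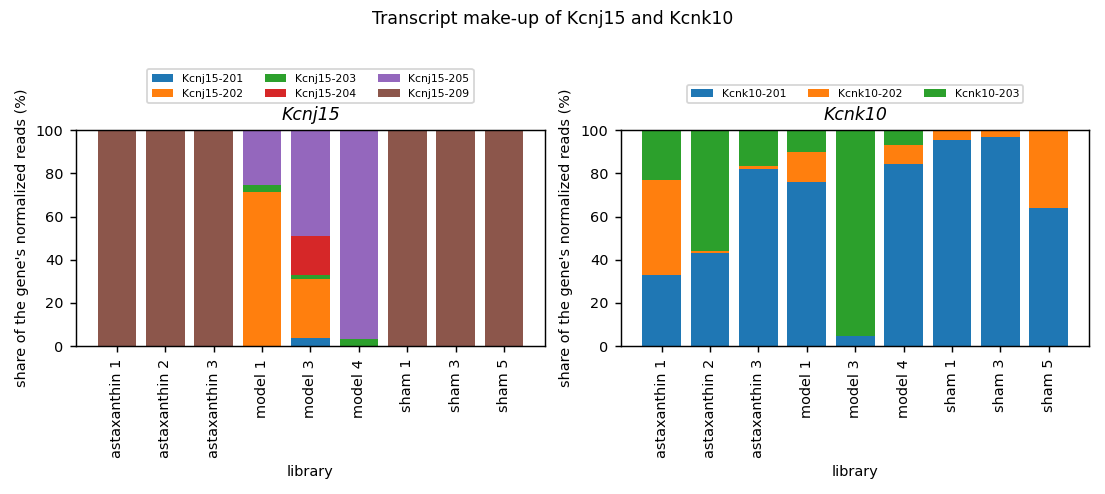
Share of the normalized reads of Kcnj15 (left) and Kcnk10 (right) assigned to each transcript, in percent, for each library, astaxanthin, model and sham from left to right. Kcnj15-209 takes all reads in astaxanthin and sham libraries and at most 0.0393% in a model library, and Kcnk10-203 is present in all 6 libraries with an occlusion and in no sham library.

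Promoter windows of RefSeq (GRCr8) were found for 58 of the 84 members, among them the 3 printed above, and 5 motifs were looked for on both strands of the 300 bases. The GC box GGGCGG was in 29 of the 58 (50%), against 34.9% of all 27457 windows. TATAAA was in 1 member, Kcnj1 (1.72%, against 14.3%). The AP-1 motif TGANTCA was in 2, Kcnj1 and Kcnj16 (3.45%, against 7.33%), and the cAMP response element TGACGTCA in 0 (against 1.91%). The left part of the element bound by Rest, TTCAGCACC, was in 1, Kcnh6 (1.72%, against 0.379%). The AP-1 and cAMP motifs begin and end alike but neither contains the other. A match describes letters in these windows and is not evidence of a bound site.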

How the data were processed

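Brain RNA of 9 rat libraries in 3 groups was used. The values are the authors' deposited signal, which in every library is a whole number of reads divided by 1 factor per library (100% of values whole within 0.01 of a read); genes and transcripts were deposited as separate tables with their own factors. Per the submitters' processing notes the tools were FastQC, STAR, StringTie and DESeq2 on build rn7; versions, annotation, strand setting and filters are not given in the sources used here. Reads of overlapping genes, and of close paralogs, may be shared, and transcript reads are the authors' assignment.

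Since the values are normalized, the test was limma 3.58.1 (trend, robust; R 4.3.3) on log2(value + 1), with all 9 libraries in 1 fit, group as the only term, and genes of at least 0.5 in at least 3 libraries (17770 genes, 32824 transcripts). P-values are two-sided and adjusted over all features tested by Benjamini-Hochberg, with a threshold of 0.05. Fold changes on this scale understate changes of low genes. Means and SDs are over 3 libraries per group; the exact permutation test of 3 against 3 cannot go below 0.1 and was not used. On the recovered reads, edgeR 4.0.16 (quasi-likelihood) called 721 genes in model against sham and 0 in both comparisons of astaxanthin, and DESeq2 1.42.0 called 2920 in model against sham, and for astaxanthin 206 against model and 791 against sham. Scripts were tested on simulated data. Floors are 3 reads and cover counting error only.

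The members and the lists were chosen with earlier results of these data known. Named are members that passed, the 12 with the smallest p in each comparison and a list of channels named whatever their values; other members were named after their values were seen. A few members, and 1 DESeq2 count by role, are not reported here, and the figures leave these members out; the other counts and medians include them. Alternatives were edgeR, DESeq2, pseudocounts of 0.1 and 10, no filter and a filter of 10, another scaling, fits of 2 groups, a replicate block and libraries left out. Promoter windows came from RefSeq (GRCr8), separate from the rn7 coordinates of the tables.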

Additional observations from a re-analysis of the deposited data

How the results depend on the processing

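In model against sham 1 member was called, and 848 of all genes. DESeq2 called 14 members (2920 of all genes) and the fit of only the 2 groups 4 (863). The fit with model 3 and astaxanthin 1 both left out called 11 (2632). Leaving out 1 library at a time gave 0 (without sham 3, 73 of all genes) to 9 (without model 4, 1038). Members called were 2 without model 3 (549 of all genes) and 7 without astaxanthin 1 (1611). In astaxanthin against model, DESeq2 called 2 members against 0, and 206 of all genes against 0. In astaxanthin against sham, DESeq2 called 2 (791 of all genes) and the fit without model 3 and astaxanthin 1 called 2 (691), against 0 (49). The members' median in astaxanthin against model was 0.11, and -0.19 to 0.34 with 1 library left out; in model against sham it was -0.48, and -0.79 to -0.17. Member transcripts called were 4 in model against sham and 1 to 4 with a library left out, 0 in astaxanthin against model and 0 to 1, and 1 in astaxanthin against sham and 1 to 2. Of all transcripts, 226, 17 and 67 were called in these comparisons, and 98 to 493, 16 to 43 and 50 to 134 with a library left out. Of values of single features over the alternatives, 2675 kept their direction and side of the threshold, 122 moved, 42 newly passed and 16 no longer passed. Kcnc1 in astaxanthin against sham was at 0.28 with all libraries and at -0.68 with astaxanthin 1 left out, alone or with model 3. With both left out it passed as lower (limma adjusted p = 0.0333). Other members changed sign over the alternatives without passing, such as Kcng4 (-0.56 to 1.37) and Kcnd2 (-0.63 to 0.50) in the same comparison. The causes were not tested.

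The replicate numbers 1 and 3 recur in the groups, and deviations of same-numbered libraries correlated at r from -0.12 to 0.07. Each group holds a library that stands apart, so these values cannot decide whether the numbers mark pairs. The labels name no pairs. With the replicate block limma called 0 members in model against sham, 0 in astaxanthin against model and 0 in astaxanthin against sham, and 0 genes of all in model against sham. The members' medians were -0.83, 0.17 and -0.41. Numbers 2, 4 and 5 occur once each, so the block fit takes its differences from the libraries numbered 1 and 3 alone. Its values are therefore not those of all 9 libraries adjusted for pairs.

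Depth limits Kcnv2 and those of the named transcripts that hold few reads, such as Kcnv2-201 and Kcnj15-203. Genes and transcripts at 0 are below 3 reads, not shown to be absent. With 3 libraries a group, and 3 of the 9 libraries apart from the rest, the spread is large, and a p that misses the threshold does not show that groups are alike.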

Other observations

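Several members lie side by side in the genome. On chromosome 4 Kcna5, Kcna1 and Kcna6 lie in a row, 106.5 kb and 69.9 kb apart (rn7), and their log2 fold changes in astaxanthin against sham were -2.41, 0.13 and -0.56. On chromosome 15 Kcnk5 lies 72.8 kb from Kcnk16, with log2 fold changes of 2.40 and 0.64 in model against sham. On chromosome 2 Kcna3 lies 54.5 kb from Kcna2, with -0.71 and -1.18 in model against sham. Of the 84 members 7 overlap another gene of the table in their annotated span: Kcnab2, Kcnh1, Kcnh3, Kcnip1, Kcnj14, Kcnma1 and Kcnmb1.

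Among the 9 libraries, model 3 was lowest in 35 of the 84 members (41.7%, against 20.1% of all genes) and astaxanthin 1 in 29 (34.5%, against 21% of all genes), and at least a doubling over the next library was seen in 7 members in astaxanthin 1 and 5 in model 3. The 7 in astaxanthin 1 included Kcnc1, Kcng4, Kcnj12, Kcnk3, Kcnt1 and Kcnd2, by 2.22 to 4.48 times, and the 5 in model 3 were Kcnj15, Kcnk5, Kcne4, Kcnj8 and Kcnj2, by 2.13 to 10.6 times. In model 3 another 11 members were at least that far below the next library, led by Kcnj6 (3.88-fold) and Kcnj3 (3.85-fold). These members were picked for those values, so no test is given.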
